A study of Mus musculus with 2 samples.

Results

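Inflammasomes are protein platforms that switch on inflammatory caspases. A cytosolic sensor such as NLRP3 or NLRP1 recruits the adaptor ASC, encoded by Pycard, which in turn gathers pro-caspase-1. Active caspase-1 matures the cytokines IL-1β and IL-18 and cuts gasdermin D, whose released part forms pores in the cell membrane. In the heart the pathway is best known in resident and recruited macrophages, and its presence in fibroblasts and cardiomyocytes is much discussed. The 9 genes described here were chosen by symbol and cover these steps: the sensors Nlrp3 and Nlrp1b, the NLRP3 partner Nek7, the upstream regulators P2rx7 and Txnip, the adaptor Pycard, and the effectors Casp1, Casp4 and Gsdmd. All 9 were found among the 32245 gene symbols of the deposited matrices.

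The study sequenced nuclei from mouse cardiac tissue with the 10x Genomics Chromium 3′ version 3 chemistry, in which each RNA molecule is counted once by its unique molecular identifier (UMI). The CF-KI library had the genotype Tcf21-MerCreMer;Nlrp3-A350V/A350V and the control library Tcf21-MerCreMer;Nlrp3-WT/WT. Both came from male C57Bl6/J mice aged 3.5 months that had received tamoxifen, which activates the Cre recombinase made under Tcf21, a gene of cardiac fibroblasts and other mesenchymal cells. The series record describes the mutant as constitutive NLRP3 activation in fibroblasts, with the allele silent in cells that lack Cre. The control therefore carried the driver and the drug but not the silenceable allele. The number of animals behind a library is not given. UMIs at the 3′ end do not read the A350V change itself, so none of the Nlrp3 counts can be assigned to the mutant or the wild-type sequence.

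After removal of doublets, 14317 CF-KI and 10897 control nuclei were kept, with 16047418 and 16012833 non-mitochondrial UMIs. Levels are given as CPM, a gene's UMIs scaled to the same total of non-mitochondrial UMIs everywhere, and every interval is a 95% interval that covers counting error only. With 1 library per genotype there is no replicate check, so differences between the libraries are given without a p-value. The libraries stood apart in quality: the median nucleus had 14.2% mitochondrial UMIs in CF-KI against 3.46% in the control, and the estimated share of free RNA (RNA from other cells captured with a nucleus) was higher in CF-KI in all 11 classes described. The estimate for macrophage-like nuclei was 73.4% in CF-KI against 39.4% in the control. It is the median level of 10 cardiomyocyte markers there, as a percentage of their level in all kept nuclei of the library. It equals a share of RNA only if free RNA has the make-up of those pooled nuclei, which was not tested. Only 46 barcode sequences occurred in both libraries.

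The 11 nucleus classes that held 50 or more nuclei of CF-KI and 50 or more of the control were named from marker lists, and the 9 genes took no part in the clustering. The largest were cardiomyocyte-like (4457 CF-KI and 2398 control nuclei), fibroblast-like (4079 and 3605), endothelial-like (1748 and 890), endocardial-like (1599 and 1160), macrophage-like (705 and 992) and mesothelial-like nuclei (652 and 666). The others were pericyte-like, B cell-like, adipocyte-like, lymphatic endothelial-like and atrial cardiomyocyte-like. All markers of each class were at least 2-fold higher in it than in the other nuclei of the same library, except Actc1 in cardiomyocyte-like nuclei of both libraries and Tnni3 in those of CF-KI. The B cell-like cluster also had Ccl5 and Gzma, genes of T and natural killer (NK) cells, among its leading genes. Finer clustering (Leiden resolution 1.5) gave a B cell-like cluster of 44 CF-KI and 120 control nuclei. It also gave a T or NK cell-like cluster of 59 and 50. The B cell-like levels below may therefore compare unlike mixes of lymphocytes. The fibroblast-like nuclei of the libraries lay mostly in different clusters, 2950 of the CF-KI nuclei in cluster 1 and 2424 of the control nuclei in cluster 3. Fewer transcripts per nucleus and a smaller share of producing cells in a class cannot be told apart from summed counts.

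Promoter sequences of 8 of the 9 genes were found in the RefSeq table for GRCm38.p6, and 4 of them are shown because the results turn on these genes and because each holds a match to a sequence read by a relevant factor. Each run is the 250 bases before the annotated start, written 5′ to 3′ on the gene's strand, and capitals mark the match. Nlrp3 lies on the plus strand (chr11:59541319-59541568) and its capitals mark the NF-kB consensus, from 186 to 177 bases before the start. Nlrp1b lies on the minus strand (chr11:71230734-71230983) and its capitals mark GAGGAAGT, a core that the myeloid factor PU.1 binds. Pycard is on the minus strand too (chr7:127993868-127994117) and its capitals mark the same core on the opposite strand. Txnip is on the plus strand (chr3:96557707-96557956) and its capitals mark a carbohydrate response element, which is a pair of CACGNG copies with 5 bases between them and is the kind of site through which glucose is known to raise Txnip.
Nlrp3: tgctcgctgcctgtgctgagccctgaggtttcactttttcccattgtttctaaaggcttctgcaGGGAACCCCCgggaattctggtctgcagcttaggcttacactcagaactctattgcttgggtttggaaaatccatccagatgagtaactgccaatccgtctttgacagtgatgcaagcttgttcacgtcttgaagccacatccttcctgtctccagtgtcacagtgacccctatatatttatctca
Nlrp1b: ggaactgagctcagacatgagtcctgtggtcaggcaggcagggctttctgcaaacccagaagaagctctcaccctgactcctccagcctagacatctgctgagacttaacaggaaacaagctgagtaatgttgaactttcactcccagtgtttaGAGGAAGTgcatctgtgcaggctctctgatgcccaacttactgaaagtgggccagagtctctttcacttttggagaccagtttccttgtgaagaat
Pycard: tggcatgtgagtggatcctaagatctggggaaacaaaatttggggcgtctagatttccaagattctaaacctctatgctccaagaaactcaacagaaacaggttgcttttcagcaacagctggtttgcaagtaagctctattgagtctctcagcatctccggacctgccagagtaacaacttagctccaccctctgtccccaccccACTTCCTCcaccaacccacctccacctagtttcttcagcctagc
Txnip: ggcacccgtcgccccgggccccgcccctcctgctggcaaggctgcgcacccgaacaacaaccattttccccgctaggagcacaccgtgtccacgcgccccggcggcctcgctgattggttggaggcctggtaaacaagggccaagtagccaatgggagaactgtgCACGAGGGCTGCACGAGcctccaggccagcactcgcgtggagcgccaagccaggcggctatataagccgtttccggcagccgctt

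Of the 12 promoters listed for the 8 genes, the one of Txnip alone held the paired element, from 85 to 69 bases before its start. Among all 32817 promoters of this length, 15 (0.0457%) held it on either strand. GAGGAAGT was found on either strand in 1 of the Nlrp1b promoters (96 to 89 bases before the start) and in that of Pycard (44 to 37 bases before it), against 2.44% of all promoters. The NF-kB consensus was found in 1 of the Nlrp3 promoters and in both of Casp4, against 7.25% of all promoters, and its overlapping matches were counted once per promoter. The Casp4 promoters overlap each other and hold the same matches. These matches describe the letters in the window and do not show binding.

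Nlrp3, the sensor that the knock-in alters, was rare everywhere. In the control library it was nearly confined to macrophage-like nuclei, and in the CF-KI library it was spread over 7 classes. The control held 19 Nlrp3 UMIs in 16 nuclei, of which 18 UMIs were in macrophage-like nuclei and 1 was in a mesothelial-like nucleus. CF-KI held 38 UMIs in 38 nuclei. Of these, 10 were in macrophage-like, 10 in cardiomyocyte-like, 6 in fibroblast-like, 5 in endocardial-like, 4 in endothelial-like, 2 in lymphatic endothelial-like and 1 in mesothelial-like nuclei. No nucleus of CF-KI had more than 1.

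The Nlrp3 level in macrophage-like nuclei was 8.25 CPM in CF-KI (3.95 to 15.2) against 15.9 CPM in the control. The ratio was -0.94 on the log2 scale (-2.22 to 0.25), an interval that holds no difference. In the control, the macrophage-like level was 230-fold that of the other classes together (log2 7.84, 5.18 to 13.2), while in CF-KI it was 4.24-fold (log2 2.08, 0.88 to 3.17). The order of the CF-KI levels put lymphatic endothelial-like nuclei (11.7 CPM, from 2 UMIs) above macrophage-like (8.25), endocardial-like (4.1), endothelial-like (1.94), cardiomyocyte-like (1.76), fibroblast-like (1.67) and mesothelial-like nuclei (1.29). No neighbours in that order differed beyond counting error.

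In fibroblast-like nuclei, the class the genotype targets, Nlrp3 had 6 UMIs in 4079 CF-KI nuclei (1.67 CPM) and none in 3605 control nuclei, where a count of 0 allows up to 0.718 CPM. With the CF-KI count taken as it stands and the control set to 3 counts, the level was at least 2.33-fold higher, and with the counting error of both the log2 ratio was no less than 0.46. The 6 UMIs were divided among all 3 fibroblast-like clusters, with 3 in cluster 1, 1 in cluster 3 and 2 in cluster 6. In cardiomyocyte-like nuclei the counts were 10 and 0, and the CF-KI level was 1.76 CPM, at least 3.49-fold above 3 control counts, with a log2 ratio no less than 1.23 once counting error is included. All 10 of these UMIs lay in cluster 0 (2.18 CPM) and none in cluster 5, whose nuclei had most of their UMIs from mitochondrial genes. The interval for CF-KI cluster 5 reached 3.37 CPM, so these counts do not set the clusters apart. Endocardial-like nuclei had 5 UMIs in CF-KI and none in the control, and endothelial-like nuclei had 4 and 0. The intervals of both ratios reached below 0 (from -0.24 and -1.54), so that these counts show no difference beyond counting error.

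Over the 9 classes other than macrophage-like and B cell-like together, Nlrp3 had 28 UMIs in CF-KI against 1 in the control, or 1.96 CPM (1.30 to 2.84) and 0.070 CPM. The log2 ratio was 4.81 (2.21 to 10.2), and the difference was 1.89 CPM (1.16 to 2.77). No other of the 9 genes differed as much there: Nek7 was the next highest at 0.46 and Txnip was at -0.25. Expressed as a percentage of the macrophage-like level of the same library, Nlrp3 in those 9 classes stood at 23.8% (11.2 to 55.0) in CF-KI and 0.442% (0.011 to 2.80, from 1 UMI) in the control. The 10 macrophage markers (Csf1r, Mrc1, F13a1, C1qa, C1qb, Adgre1, Cd163, Mertk, Cd68 and Ms4a7), measured the same way, stood between 2.17% and 17.3% (median 6.62%) in CF-KI and between 0.649% and 6.83% (median 1.98%) in the control. Thus the CF-KI value of Nlrp3 lay above those of all 10 markers, with an interval that reached below the highest of them. The control value of Nlrp3 lay below all 10, but its interval covers most of them. The markers were used to name the class and Nlrp3 was not, so the comparison is uneven. In CF-KI the other inflammasome genes also lay above all 10 markers, except P2rx7 (16.4%) and Nlrp1b (12.8%).

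**Figure D1:**
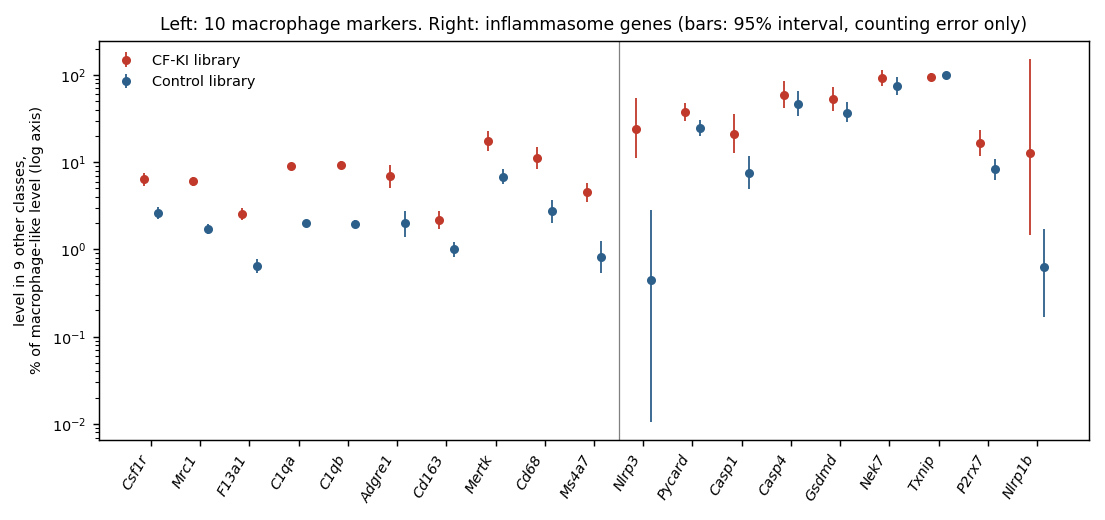
Level of each gene in the 9 classes other than macrophage-like and B cell-like, as a percentage of its level in macrophage-like nuclei of the same library (log axis), for 10 macrophage markers on the left and the 9 inflammasome genes on the right. Points are CF-KI (red) and control (blue) and bars are 95% intervals of counting error. Nlrp3 stands at 23.8% in CF-KI against 0.442% in the control, while the markers range from 2.17% to 17.3% and from 0.649% to 6.83%.

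The nuclei that held the 28 UMIs outside macrophages were set beside their neighbours for RNA of other leukocytes. Of these 28 nuclei, 2 (7.14%, 0.877 to 23.5) had a UMI of any of the 10 macrophage markers. That interval holds the 20.7% found for all 13307 CF-KI nuclei in the 9 classes. The median depth of the 28 was 1436 non-mitochondrial UMIs, against 806 for all of these nuclei. For the 9 monocyte markers the shares were 21.4% (8.30 to 41.0) and 15.1%. None of the 28 had a UMI of the 9 granulocyte markers (interval up to 12.3%), which were found in 0.639% of CF-KI nuclei in these classes. The granulocyte list summed to 6.17 CPM there in CF-KI against 1.96 CPM in the control. Most of its CF-KI UMIs were of S100a9 (45 and 3 UMIs in CF-KI and control) and S100a8 (27 and 7). Mmp9 (5 and 2), Cxcr2 (4 and 1) and Retnlg (3 and 1) were higher in CF-KI too. Csf3r (3 and 10), Camp (1 and 2) and Il1r2 (0 and 2) were lower, and Ngp was at 0 in both. With only 28 nuclei and wide intervals, these shares cannot tell what part of the Nlrp3 counts was free RNA, and that part was not tested.

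Nlrp1b, a sensor for proteases such as anthrax lethal factor, showed the widest gap between the libraries among the 9 genes in macrophage-like nuclei. It was found mainly in macrophage-like nuclei in the control and was nearly missing from CF-KI. Macrophage-like nuclei held 2 Nlrp1b UMIs in CF-KI against 50 in the control, or 1.65 and 44.0 CPM. The control level was 26.7-fold higher, a log2 ratio of CF-KI to control of -4.74 (-7.82 to -2.81). In the control, 46 of 992 macrophage-like nuclei (4.64%, 3.41 to 6.14) had a UMI, against 2 of 705 in CF-KI (0.284%, 0.034 to 1.02), at median depths of 850 and 1109 UMIs. After thinning to 500 UMIs per nucleus, which left out 37 and 46 shallower nuclei, the shares were 2.62% and 0.152%. Cardiomyocyte-like nuclei, which should lack the gene, had a UMI in 0 of 2398 control nuclei (allowing up to 0.125%) and in 1 of 4457 CF-KI nuclei, at median depths of 2197 and 1079. Control macrophage-like nuclei stood 128-fold above the other classes together, and the classes below them (B cell-like, pericyte-like, endothelial-like, endocardial-like and fibroblast-like, with 1 UMI each) did not differ from one another. In CF-KI the remaining 3 UMIs were in 3 different classes.

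Among the 10736 genes with at least 20 UMIs in macrophage-like nuclei, with counts under 3 set to 3, Nlrp1b was the fifth lowest in CF-KI. The 4 below it were Scgb1a1, Bpifa1, Cyp2f2 and Scgb3a2, genes of airway secretory cells, whose nuclei formed a class of 127 in the control and 1 in CF-KI. Nlrp1b had 1 UMI in that airway epithelial-like class of the control, or 3.15 CPM. The paralog Nlrp1a, which lies next to Nlrp1b on the same strand, had 0 UMIs in CF-KI against 8 in the control in macrophage-like nuclei. Because these genes resemble one another, reads may have been divided between them, and the count of each is uncertain.

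Nlrp1b (chr11:71153102-71230733, GENCODE vM21 on GRCm38) starts 11.6 Mb from Nlrp3 (chr11:59541568-59566956), the gene that was edited. Of 509 genes of chromosome 11 that start within 25 Mb of Nlrp3 and had at least 20 UMIs in 1 or more of the 6 largest classes, 2 (0.393%) differed 8-fold or more between the libraries in every class where they were tested, namely Nlrp1b and AA465934. Nlrp1b was tested in macrophage-like nuclei alone and AA465934 in all 6 classes. The count was prompted by the Nlrp1b difference and includes it, so the 0.393% is not independent of that gene. The count past 8-fold was 0 of 655 genes on the rest of the chromosome and 15 of 13214 (0.114%) on the others. Those 15 include airway genes such as Scgb1a1 and Bpifa1 and the granulocyte markers S100a8, S100a9 and Retnlg. AA465934, 23.8 Mb from Nlrp3, was higher in CF-KI, with 740 and 17 UMIs. A pair of further genes, chosen after their values were seen, were lower in CF-KI: 2610507I01Rik, 0.34 Mb from Nlrp3, with 5 and 162 UMIs, and AU040972, 19.9 Mb from it, with 3 and 57. Whether the position has a part in the Nlrp1b difference was not tested.

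**Figure D2:**
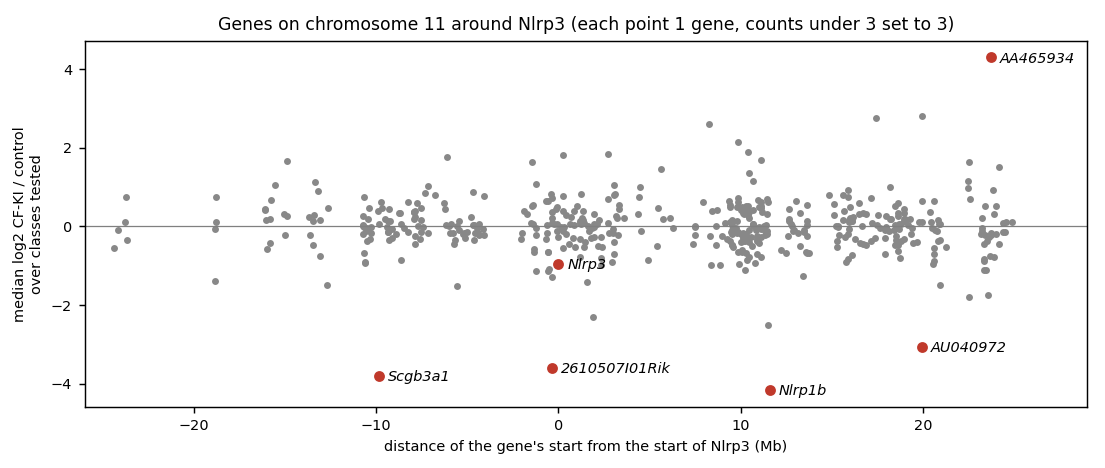
Genes of chromosome 11 around Nlrp3: distance of the gene's start from the Nlrp3 start in Mb (x axis) and median log2 ratio of CF-KI to control over the classes tested (y axis), with counts under 3 set to 3. Each grey point is 1 of 509 genes and named genes are red. Nlrp1b, at 11.6 Mb, is the lowest point at -4.15, and most genes lie near 0.

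Nek7, the kinase that binds NLRP3 and lets it assemble, was present in all 11 classes of both libraries. Endothelial-like nuclei had the highest level, 131 CPM in CF-KI against 122 in the control, and in the control they were followed by endocardial-like nuclei (99.1 CPM), which did not differ from them beyond counting error. Fibroblast-like nuclei had 62.7 and 55.5 CPM and macrophage-like nuclei 78.3 and 70.5, so that in these 4 classes the libraries differed by at most 0.18 on the log2 scale, within counting error. Cardiomyocyte-like nuclei were the exception among the large classes. Their level was 54.8 CPM in CF-KI (311 UMIs) against 28.5 in the control (169 UMIs), a log2 ratio of 0.94 (0.67 to 1.22).

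That Nek7 difference moved with the clusters that make up the class. In cluster 0 the levels were 27.9 CPM in CF-KI against 22.0 in the control, a log2 ratio of 0.34 (-0.024 to 0.71). In cluster 5 they were 167 and 168 CPM, a ratio of -0.01 (-0.49 to 0.50). Cluster 5 made up 42.9% of the cardiomyocyte-like nuclei in CF-KI against 9.72% in the control, and its median nucleus had 63.6% mitochondrial UMIs. Within each cluster, then, the interval of the ratio held no difference. In small classes Nek7 was also higher in CF-KI in atrial cardiomyocyte-like nuclei (9 and 8 UMIs, log2 ratio 1.60, 0.058 to 3.18) and lymphatic endothelial-like nuclei (11 and 1 UMIs), where single counts carry much weight.

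P2rx7, the ATP-gated channel whose opening lets potassium leave the cell, was highest in macrophage-like nuclei in both libraries. The level there was 45.3 CPM in CF-KI (55 UMIs) against 93.4 CPM in the control (106 UMIs), a log2 ratio of -1.04 (-1.54 to -0.56). Macrophage-like nuclei stood 6.1-fold above all other classes in CF-KI and 12.2-fold in the control, and in both libraries they differed from the next class, endocardial-like nuclei (17.2 and 20.3 CPM). Among the classes further down, no neighbours differed beyond counting error. Fibroblast-like nuclei had 13.1 and 12.9 CPM (log2 ratio 0.02, -0.58 to 0.61), and cardiomyocyte-like nuclei had 2.29 and 1.01. A P2rx7 UMI was found in 7.66% of CF-KI and 10.2% of control macrophage-like nuclei, beside 0.292% and 0.25% of cardiomyocyte-like nuclei.

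Txnip, which binds thioredoxin and can bind NLRP3 when oxidants release it, was counted in every class, and its largest difference was in cardiomyocyte-like nuclei. There it had 955 UMIs in CF-KI against 2427 in the control, or 168 CPM (158 to 179) and 409 CPM (393 to 425). The control was 2.43-fold higher, a log2 ratio of -1.28 (-1.39 to -1.17), while the median of all 12655 genes tested in that class was 0.23 in the other direction. With CF-KI as the low library, both clusters showed the gap: cluster 0 had 149 and 405 CPM (-1.44, -1.57 to -1.32) and cluster 5 had 250 and 498 CPM (-0.99, -1.30 to -0.68). A Txnip UMI was seen in 17.2% of CF-KI and 54.3% of control cardiomyocyte-like nuclei, at median depths of 1079 and 2197. Thinned to 500 UMIs, with 1119 and 74 nuclei left out, the shares were 8.57% and 17.9%. One control nucleus held 48 Txnip UMIs, and no CF-KI cardiomyocyte-like nucleus held more than 6. Gm15441, a transcript antisense to Txnip, had 3 and 15 UMIs in this class, and whether strand was used in counting is not given in the sources used here.

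**Figure D3:**
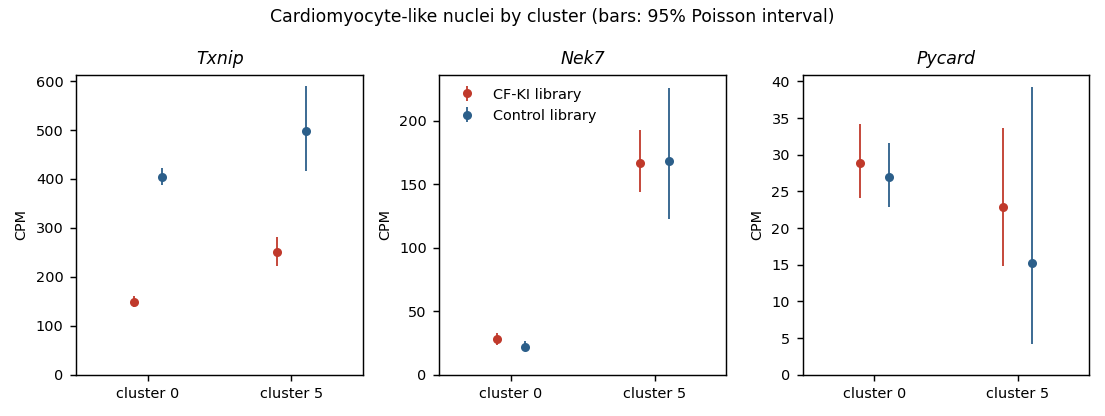
Txnip, Nek7 and Pycard in the clusters of cardiomyocyte-like nuclei, in CPM, for CF-KI (red) and control (blue), with 95% Poisson intervals of counting error. Txnip is lower in CF-KI in both clusters (149 against 405 CPM in cluster 0), whereas Nek7 differs between the clusters (27.9 and 167 CPM in CF-KI) and not between the libraries within cluster 5.

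In the other classes Txnip differed less and in both directions. Endothelial-like nuclei had the highest level in both libraries, 857 CPM in CF-KI against 1043 in the control (log2 ratio -0.28, -0.39 to -0.17). In the control this was beyond the next class, lymphatic endothelial-like nuclei at 556 CPM, while in CF-KI adipocyte-like nuclei, at 825 CPM, did not differ from it. Fibroblast-like nuclei had 379 and 441 CPM (-0.22, -0.32 to -0.12) and macrophage-like nuclei 416 and 473 (-0.19). Txnip was higher in CF-KI in adipocyte-like nuclei (825 against 468 CPM, log2 ratio 0.82, 0.52 to 1.13), pericyte-like nuclei (454 against 328, 0.47) and endocardial-like nuclei (551 against 473, 0.22). Some of these directions turned with the processing: at no more than 5% mitochondrial UMIs the ratio was -0.59 in endocardial-like and 0.021 in endothelial-like nuclei, and with free RNA subtracted it was 0.035 in macrophage-like nuclei. The order of the classes also differed: cardiomyocyte-like nuclei were last of 11 in CF-KI, whereas in the control they lay between B cell-like nuclei at 410 CPM and mesothelial-like nuclei at 378. The Txnip promoter printed above, with its paired element, is the 1 sequence for all of these classes.

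**Figure D4:**
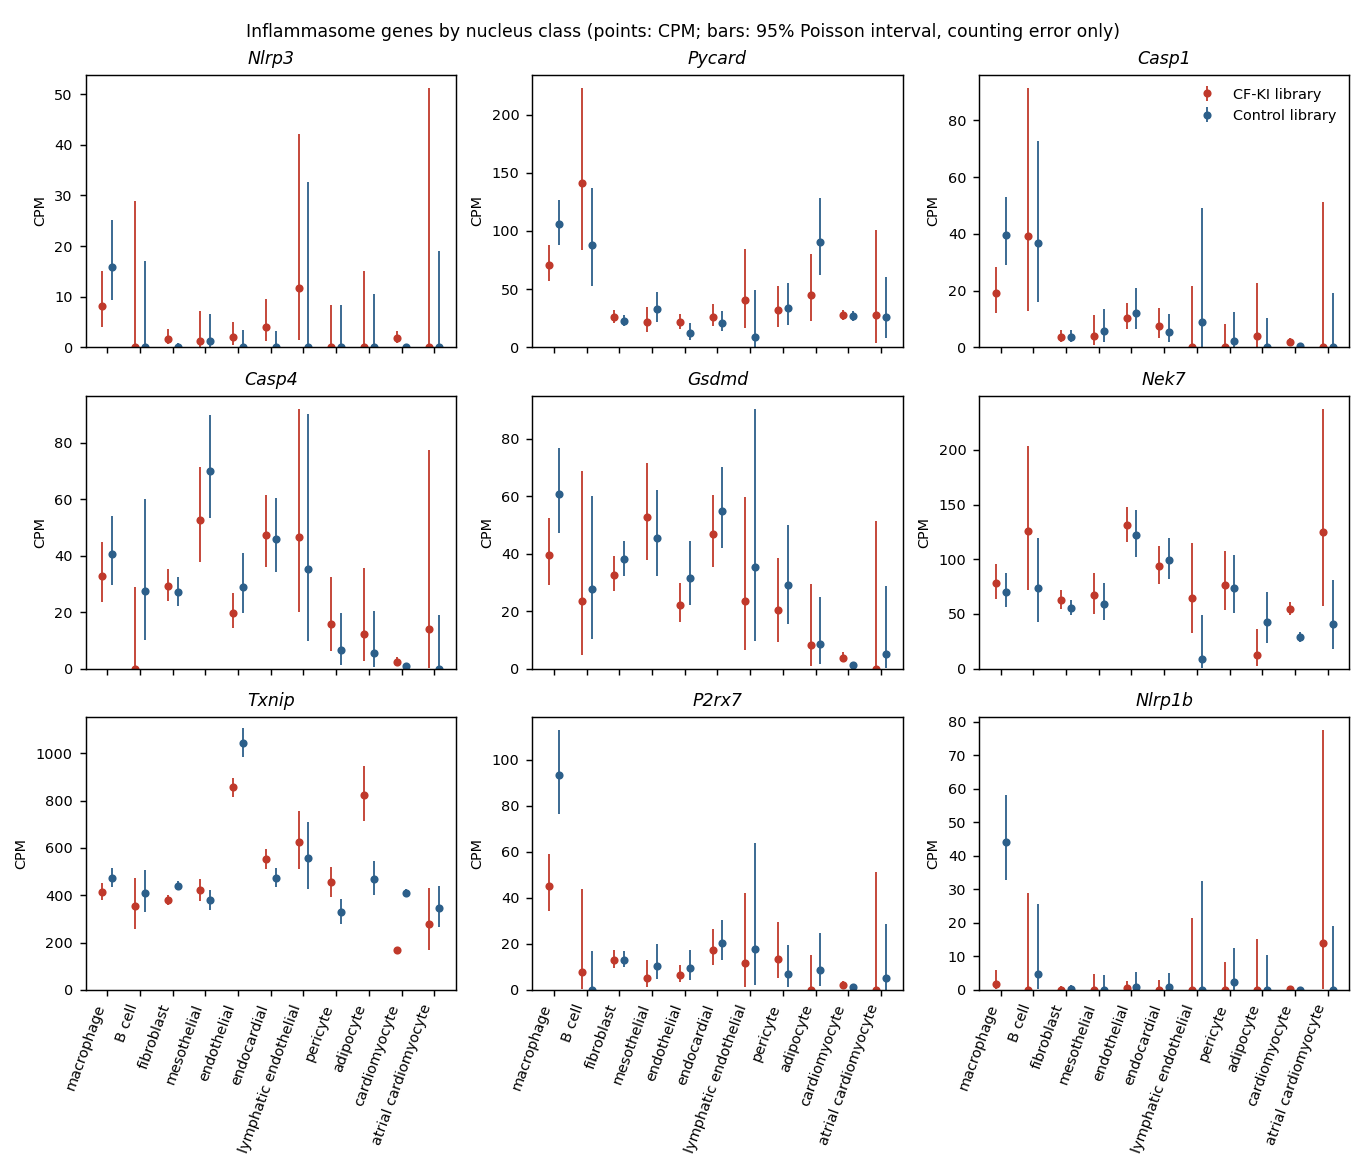
Level of the 9 genes in 11 nucleus classes, in CPM (y axis from 0, a scale of its own in each panel), for CF-KI (red) and control (blue), with 95% Poisson intervals of counting error. Pycard, Casp1, P2rx7 and, in the control, Nlrp3 and Nlrp1b stand highest in macrophage-like or B cell-like nuclei, Casp4 and Gsdmd are shared by mesothelial-like, endocardial-like and macrophage-like nuclei, and Txnip is lowest in CF-KI cardiomyocyte-like nuclei at 168 CPM.

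Pycard, the adaptor that links sensors to caspase-1, was counted in all 11 classes, and it was the only one of the adaptor and effector genes with a sizeable count in cardiomyocyte-like nuclei. The leukocyte classes held the highest levels. Macrophage-like nuclei had 70.9 CPM in CF-KI (86 UMIs) against 106 CPM in the control (120 UMIs), a log2 ratio of -0.58 (-0.99 to -0.16), and B cell-like nuclei had 141 and 87.6 CPM from 18 and 19 UMIs. In the control, adipocyte-like nuclei (90.7 CPM) did not differ from these, and a clear step led down to pericyte-like nuclei at 33.7 CPM. In CF-KI the adipocyte-like level was 45 CPM, and the interval of the log2 ratio (-1.01, -2.15 to 0.01) held no difference. Fibroblast-like nuclei had 25.9 and 22.7 CPM, and endothelial-like nuclei 21.3 and 12.1.

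Cardiomyocyte-like nuclei had 157 Pycard UMIs in either library, 27.7 and 26.5 CPM, which is close to the fibroblast-like level. The log2 ratio of CF-KI to control was 0.06 (-0.26 to 0.39). In the same nuclei the effectors were almost unseen: Casp1 had 10 and 2 UMIs, Casp4 14 and 5, and Gsdmd 21 and 7. The control cardiomyocyte-like level of Pycard was 0.729 times that of the other classes together, compared with 0.0348 for Casp1, 0.0258 for Casp4 and 0.0293 for Gsdmd. In CF-KI the corresponding values were 0.847, 0.233, 0.0805 and 0.112. The part of free RNA in the Pycard counts of this class was not tested.

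Casp1, the protease at the centre of the canonical pathway, was highest in the leukocyte classes. B cell-like nuclei had 39.2 CPM in CF-KI against 36.9 in the control, from 5 and 8 UMIs. Macrophage-like nuclei had 19.0 CPM in CF-KI (23 UMIs) against 39.6 in the control (45 UMIs), a log2 ratio of -1.06 (-1.86 to -0.31). Endothelial-like nuclei followed with 10.2 and 12.1 CPM, 2.15-fold and 2.13-fold above the other classes together. Fibroblast-like nuclei had 3.62 and 3.59 CPM, from 13 and 15 UMIs (log2 ratio 0.01, -1.18 to 1.19). In cardiomyocyte-like nuclei the level was 1.76 CPM in CF-KI against 0.337 in the control (2.39, 0.16 to 5.62), a ratio that rests on 2 control UMIs.

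Casp4, the mouse caspase-11 that senses cytosolic lipopolysaccharide in the non-canonical pathway, was not highest in the leukocyte classes. Mesothelial-like nuclei had the highest level, 52.7 CPM in CF-KI against 69.9 in the control, followed by endocardial-like nuclei with 47.5 and 46.0. In the control the step between these was beyond counting error, and in CF-KI it was not. Macrophage-like nuclei had 33.0 and 40.5 CPM, fibroblast-like nuclei 29.3 and 27.0, and endothelial-like nuclei 19.8 and 28.9. Cardiomyocyte-like nuclei had 2.47 and 0.842 CPM. The intervals of the log2 ratio between the libraries held no difference in any of the 11 classes.

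Gsdmd, whose cleaved protein forms the pore of pyroptosis, followed a similar order. The control levels were 60.8 CPM in macrophage-like, 54.8 in endocardial-like, 45.5 in mesothelial-like and 38.1 in fibroblast-like nuclei, and no neighbours among these differed beyond counting error. In CF-KI the levels were 52.7 CPM in mesothelial-like, 46.7 in endocardial-like, 39.6 in macrophage-like and 32.6 in fibroblast-like nuclei. The libraries differed beyond counting error in macrophage-like nuclei (log2 ratio -0.62, -1.18 to -0.07). The reverse direction was seen in cardiomyocyte-like nuclei, with 3.70 CPM in CF-KI against 1.18 in the control (21 and 7 UMIs, 1.65, 0.36 to 3.13). In cardiomyocyte-like cluster 0 alone, with 11 and 7 UMIs, the Gsdmd ratio was 0.96 (-0.54 to 2.57). Casp1 in cluster 0 was at 1.89 (-0.59 to 5.23), with 6 and 2 UMIs.

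The 9 genes were counted in each of 6 classes where they had at least 20 UMIs. Of 38 such pairs of gene and class, 1 was 2-fold or more higher in CF-KI and 4 were lower. Nlrp3 and Nlrp1b reached 20 UMIs in macrophage-like nuclei alone, so the counts for the other classes leave them out. In fibroblast-like nuclei, the class in which the allele is meant to act, 0 of 7 differed 2-fold or more. Nlrp3, with 6 and 0 UMIs there, was not among the 7. Of all genes tested in that class, 5.57% were 2-fold or more higher in CF-KI and 2.74% were lower. The count was also 0 of 7 in endothelial-like nuclei (all genes 3.6% higher and 3.49% lower), 0 of 6 in endocardial-like nuclei (6.61% and 3.09%) and 0 of 5 in mesothelial-like nuclei (6.64% and 3.22%). In cardiomyocyte-like nuclei Gsdmd was higher and Txnip lower among 4 genes, beside 16.8% higher and 1.9% lower among all genes. In macrophage-like nuclei 3 of 9 were lower (Nlrp1b, Casp1 and P2rx7) and none was higher, beside 5.83% lower and 7.6% higher among all genes. The median log2 ratio of the 9 there was -0.62, and that of all 10736 genes was -0.02.

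**Figure D5:**
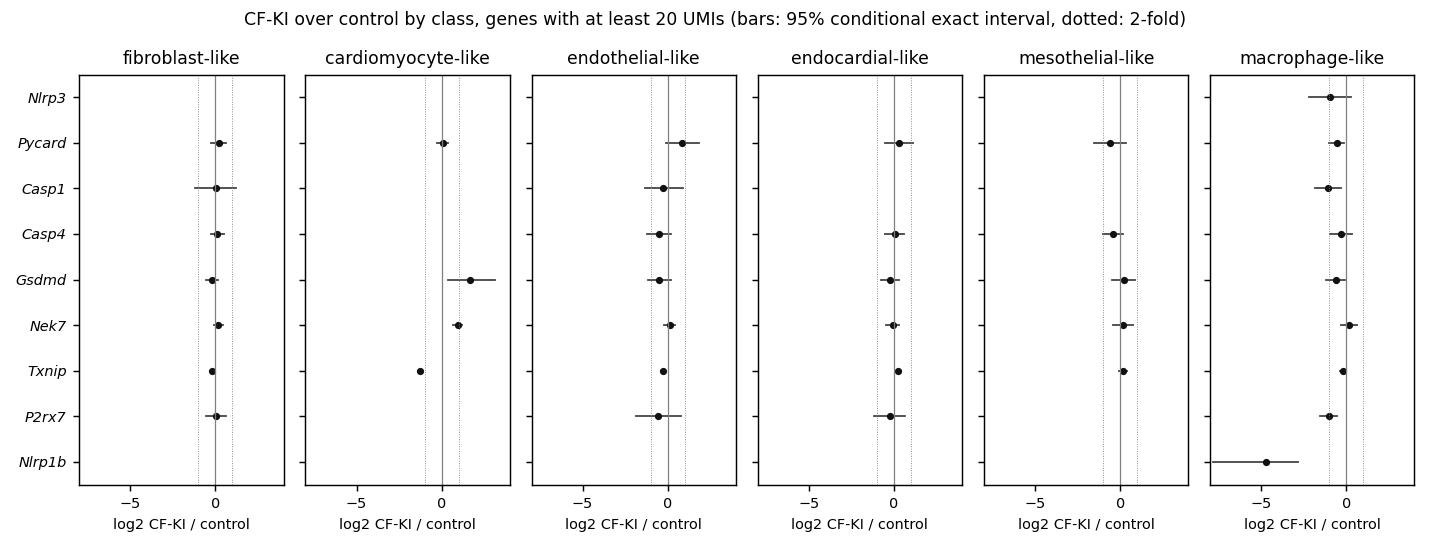
Log2 ratio of CF-KI to control for each gene with at least 20 UMIs in the 6 largest classes, with 95% conditional exact intervals of counting error; dotted lines mark 2-fold. In macrophage-like nuclei 8 of the 9 points lie below 0 and Nlrp1b is farthest at -4.74, and in cardiomyocyte-like nuclei Txnip is at -1.28.

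The 10 macrophage markers were measured in the same macrophage-like nuclei. All 10 were lower in CF-KI, by -0.54 to -1.55 on the log2 scale (median -1.23). Csf1r had 283 and 581 CPM and Cd163 had 288 and 841. The ratios of Casp1 (-1.06), P2rx7 (-1.04), Nlrp3 (-0.94), Gsdmd (-0.62) and Pycard (-0.58) lie within the range of the markers. Those of Casp4 (-0.30) and Txnip (-0.19) lie closer to 0, Nek7 was at 0.15, and that of Nlrp1b (-4.74) lies outside. With the estimated free RNA subtracted, Casp1 was at -0.13, P2rx7 at -0.03, Pycard at 0.25, Gsdmd at 0.07 and Casp4 at 0.35, while Nlrp1b was at -3.72. This subtraction rests on the estimate from 10 cardiomyocyte markers. Some granulocyte markers, named here because they differed 8-fold or more, were higher in CF-KI macrophage-like nuclei. S100a8 had 136 UMIs there in CF-KI against 1 in the control, S100a9 had 144 against 1 and Retnlg 29 against 0. The other granulocyte markers are not given for this class. The parts of free RNA and of the mix of cells in these differences were not tested.

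The other genes of the pathway, a list of 84 of which 83 are in the files, were counted in the same way. In macrophage-like nuclei, 1 of 66 tested was higher in CF-KI and 6 were lower, beside 7.6% and 5.83% of all genes. The higher one was Il1b, the cytokine that caspase-1 matures, at 18.1 and 8.81 CPM (log2 ratio 1.04, -0.10 to 2.28), and the lowest were the calcium channel Trpm2 (-1.86), the DNA sensor Aim2 (-1.83) and the Toll-receptor kinase Irak4 (-1.10). In fibroblast-like nuclei, 2 of 61 were higher and 2 lower, beside 5.57% and 2.74% of all genes. The fatty acid receptor Cd36 had 356 and 100 CPM (log2 ratio 1.83), the death-domain adaptor Fadd was at 2.42 from 23 and 5 UMIs, Aim2 was at -1.92 and Tlr2 at -1.04. In cardiomyocyte-like nuclei, 8 of 53 were higher and 1 was lower, which is near the 16.8% and 1.9% of all genes, and cluster 5 made up 42.9% of this class in CF-KI but 9.72% in the control. Thioredoxin, the partner of TXNIP encoded by Txn1, had 60.3 and 16.2 CPM (1.90, 1.57 to 2.24), opposite to Txnip. Serpinb1a, a protease inhibitor, was at 1.72, the chloride channel Clic1 at 1.71 and the mitochondrial NLR protein Nlrx1 at -1.26. In endothelial-like nuclei the gasdermin Gsdme was at 1.01 and the antibody receptor Trim21 at -1.15, each the only one past 2-fold in its direction of 54 tested (all genes 3.6% and 3.49%).

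Of 67 pathway genes with at least 100 UMIs, 9 were highest in macrophage-like nuclei in both libraries: the NAIP/NLRC4 sensors Nlrc4 and Naip5, the membrane rupture protein Ninj1, the channels P2rx4 and Kcnk6, the receptors Tlr4 and Tlr2, and the kinases Ripk1 and Pak1. Endothelial-like nuclei were highest in both for 10, among them Clic1, Clic4, Lrrc8a, Txn1, Cd36 and Gbp5. Mesothelial-like nuclei were highest for Il18, the other cytokine that caspase-1 matures, and for Gsdme.

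The genes whose levels followed each member most closely over the 22 combinations of class and library were taken from 11286 genes with at least 200 UMIs, by Pearson's r of log2(CPM + 1). For Gsdmd they were Ap3m2 (r = 0.96), Ifih1 (0.92) and Pigt (0.92), and for Casp4 they were Arhgap28 (0.92), Gabbr1 (0.91) and Fam91a1 (0.90). Casp1 was followed by Grk2 (0.91), Samhd1 (0.85) and Heca (0.85). Nek7 was followed by Mgmt, Ciao2a and Cdc37 (0.88, 0.88 and 0.87), P2rx7 by Heatr5a, Fes and Gab2 (0.82, 0.80 and 0.80), Pycard by Dock2, Sema4a and BE692007 (0.84, 0.83 and 0.82), and Txnip by Ier2, Prickle1 and Ctnnb1 (0.77, 0.77 and 0.75). Nlrp3 and Nlrp1b had under 100 UMIs and were left out. These lists depended on the settings: 8 of the 21 genes were named again with log2(CPM + 10) and 3 of the 21 with the control classes alone. Among the 9 genes themselves the highest of the pairwise values were Gsdmd with P2rx7 (0.70), Casp4 with Gsdmd (0.62) and Casp1 with Gsdmd (0.61). These points share libraries and depth, and small classes with few UMIs weigh as much as large ones.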

How the data were processed

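The matrices were deposited as raw, whole-number UMI counts by feature and barcode, made with Cell Ranger 6.1.1 on mm10 per the submitters' processing notes; whether introns were counted is not given in the sources used here. The features and barcodes files were deposited beside them. Of 32285 features, 99.6% matched GENCODE vM21. Barcodes with at least 200 genes were kept, doublets were called with Scrublet in scanpy 1.11.5 (650 in CF-KI against 299 in the control) and removed, and no limit was set on mitochondrial UMIs, since a limit of 5% keeps few CF-KI nuclei. Both libraries were clustered together (2000 variable genes, 30 components, 15 neighbours, Leiden resolution 0.8) without the 9 genes, the pathway genes, mitochondrial and ribosomal genes. Clusters were named after the list with the largest share of markers raised 2-fold or more. That ranking and a rule that leaves cycling clusters unnamed were set after the clusters were seen.

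Counts were summed per class and library. Levels have exact Poisson intervals, shares of nuclei Clopper-Pearson intervals, and ratios conditional exact binomial intervals, all at 95%. No test was made, because each group is 1 library. A count of 0 is read as up to 3. The interval and 2-fold rules were tested on simulated data. TMM (edgeR 4.0.16) and median-of-ratios (DESeq2 1.42.0) scaling were alternatives. Free RNA was estimated from the 10 cardiomyocyte markers. In cardiomyocyte-like and atrial cardiomyocyte-like nuclei it was estimated from markers of the other classes (96 in CF-KI and 101 in the control). The members, pathway lists and markers were chosen with earlier results of these data known. Named genes are all 9 members, the 3 genes most like each member with at least 100 UMIs, the pathway genes past 2-fold with at least 20 UMIs (at most 3 in either direction in fibroblast-like, cardiomyocyte-like, endothelial-like and macrophage-like nuclei) and those highest in 1 class. Promoter sequences are RefSeq's for GRCm38.p6.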

Additional observations from a re-analysis of the deposited data

Results flagged for a closer look

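Casp1 and Gsdmd had ratios of CF-KI to control that excluded 0 in opposite directions in different classes. The log2 ratio of Casp1 was 2.39 in cardiomyocyte-like nuclei and -1.06 in macrophage-like nuclei, and that of Gsdmd was 1.65 and -0.62. The cardiomyocyte-like values rest on 2 and 7 control UMIs, and in cluster 0 alone the intervals held 0 (-0.59 to 5.23 and -0.54 to 2.57). With free RNA subtracted the macrophage-like values were -0.13 and 0.07, so these opposite directions were not kept in all alternatives. Txnip did so over 7 classes: it was higher in CF-KI in adipocyte-like (0.82), pericyte-like (0.47) and endocardial-like nuclei (0.22), and lower in cardiomyocyte-like (-1.28), endothelial-like (-0.28), fibroblast-like (-0.22) and macrophage-like nuclei (-0.19). The sign turned at no more than 5% mitochondrial UMIs in endocardial-like (-0.59) and endothelial-like nuclei (0.021), and with free RNA subtracted in macrophage-like nuclei (0.035). With 1 library per genotype the difference between classes was not tested.

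The 127 airway epithelial-like nuclei of the control, which have no counterpart of usable size in CF-KI and entered no comparison, had a level above that of all control nuclei beyond counting error for 2 of the genes. Casp4 was at 41.0 CPM against 20.9, and Nek7 was at 126 CPM against 55.6. Other genes lay below the level of all control nuclei beyond counting error. Gsdmd had 0 UMIs (interval up to 11.6 CPM) against 24.9 CPM, and Txnip was at 347 CPM (285 to 418) against 465.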

How the results depend on the processing

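No paired analysis was possible because each group has 1 replicate number and 1 library, and no replicate could be left out. Of 752 combinations of a result and an alternative, 685 stayed within their interval or within 1.5 times a count, 62 moved and 5 changed sign. The limit of 5% mitochondrial UMIs moved or turned 27 of its 53 results and the subtraction of free RNA 11 of 38. The signs that changed were those of Pycard (0.25), Gsdmd (0.074) and Txnip (0.035) in macrophage-like nuclei with free RNA subtracted, and of Txnip at no more than 5% mitochondrial UMIs in endothelial-like (0.021) and endocardial-like nuclei (-0.59); the cause was not tested. Txnip in cardiomyocyte-like nuclei (-1.28) kept its direction in all alternatives run. It was -1.51 at no more than 5% mitochondrial UMIs, -1.44 without cluster 5, -1.44 with at least 500 genes per nucleus, -1.66 over all UMIs, -1.52 with TMM, -1.51 with median-of-ratios scaling, -2.11 with free RNA subtracted and -1.09 after thinning. The scaling factors themselves shift that class by -0.24 and -0.23. The count of genes past 2-fold, 5 over 6 classes, was 8 at no more than 5% mitochondrial UMIs, 3 with at least 500 genes per nucleus, 16 with no filter on low counts and 2 with at least 100 UMIs; the last follow from how many genes are counted. Nlrp1b in macrophage-like nuclei ranged from -5.66 to -3.72, and the Nlrp3 difference outside macrophages from 1.48 to 2.13 CPM, with 8 CF-KI UMIs left at no more than 5% mitochondrial UMIs. Leaving out barcodes found in both libraries, an alternative chosen after seeing the data, moved nothing. Of the genes most like a member, 8 of 21 were shared with log2(CPM + 10) and 3 of 21 with the control classes alone. Scaling factors were not run for levels between classes, nor the subtraction of free RNA for levels, the count past 2-fold and the Nlrp3 difference. Nlrp3 and Nlrp1b outside macrophages lie near the level of single counts.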
